A study of Mus musculus with 4 samples.

Results

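The insulin-like growth factor (IGF) axis and the stanniocalcins were followed through 10 genes: the ligand gene Igf1, the receptor gene Igf1r, the binding protein genes Igfbp2, Igfbp3, Igfbp4, Igfbp5, Igfbp6 and Igfbp7, and the stanniocalcin genes Stc1 and Stc2. They were chosen by gene symbol from the annotated probes of the array, which cover 27278 symbols, and 19 of its 56605 probes carry these names. RNA came from cultured aortic vascular smooth muscle cells of adult C57BL/6J mice, grown out of aortic explants and kept in DMEM, and every culture had the genotype given as EP4-Tg. Prostaglandin E2 (PGE2) signals through the EP4 receptor, by way of Gs and cyclic AMP. The control group was 2 cultures sampled after 24 h with nothing added, and the PGE2 group was 2 cultures sampled after 24 h of PGE2, each on its own single-colour Agilent array. The dose of PGE2, and the promoter and species of the EP4 sequence, are not given in the sources used here. No culture of another genotype was analysed here, so the comparison is of PGE2 with control within EP4-Tg cells. The cultures are described as biological replicates, and p-values measure only the spread between them.

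IGF1 is a secreted growth factor that acts through IGF1R, a receptor tyrosine kinase, and in the artery wall it supports the growth and survival of smooth muscle cells. Binding proteins hold IGFs outside the cell and control how much reaches the receptor. The protease PAPP-A cuts IGFBP4 and so sets free the IGF bound to it, and the stanniocalcins STC1 and STC2 are secreted inhibitors of PAPP-A. IGFBP7 binds IGFs only weakly and is counted as a related protein.

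Stc2 was the 1 gene of the 10 that passed the test, and it was lower with PGE2. It was called in 3 of 12 alternative settings, and its signal on PGE2 replicate 1 was not well above background. Igfbp4 stood higher and Igfbp7 lower on both PGE2 arrays than on both control arrays, but neither passed. Igf1, Igf1r, Igfbp2, Igfbp3, Igfbp6 and Stc1 overlapped between the groups, and in each of them the cultures of at least 1 group differed from each other by more than the group means did. Igfbp5 stayed near background, which here means not flagged by the scanner software as well above it, on all 4 arrays.

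Of the 10 genes, 9 were tested: 6 on a probe well above background on all 4 arrays, Igfbp6 and Stc2 through the control arrays with 1 of 2 PGE2 arrays also above background, and Stc1 through the PGE2 arrays with 1 of 2 control arrays also above. Levels below are log2 of the signal relative to the 75th percentile of the same array, so that 0 is that percentile, and changes are PGE2 minus control on that log2 scale, each given with its standard error from limma (n = 2 per group). Different probes are not compared in level, because they bind with different strength. Across 17660 tested genes or unnamed probes, 0.668% were called at an adjusted p under 0.05 and 0.272% were called lower, against 1 of the 9, also lower. At an unadjusted p under 0.05 these were 17.8% of all and 2 of the 9 (Stc2 and Igfbp4), and arrays of the groups did not overlap in 52.2% of all and in 3 of the 9 (Stc2, Igfbp4 and Igfbp7). The median change of the 9 was 0.07, beside -0.03 over all tested genes. By direction, 7.31% of all were higher and 10.5% lower at the unadjusted threshold, against 1 and 1 of the 9. The 3 of 9 without overlap are a smaller share than over all genes. The lowest adjusted p over all tested genes was 0.0438 (limma), so every call lay just under the threshold.

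Between 47.9% and 53.8% of non-control spots were well above background on an array, and none was saturated. Of the smooth muscle markers, Acta2 and Tagln were bright on all arrays, while Myh11 did not reach the filter and Myocd stayed near background throughout. The summed level of the 4 tested of 8 smooth muscle markers, relative to the 75th percentile, was 407 to 714 on the control arrays and 129 to 173 on the PGE2 arrays. For 5 tested of 6 fibroblast markers the sum was 106 to 202 against 23.4 to 29.0, while Dpt stayed near background throughout. For 5 tested of 7 macrophage markers the sum was 63.8 to 77.6 against 41.3 to 61.5, with Adgre1 and Lyz2 near background throughout. Of 7 endothelial markers, Pecam1 alone was tested (0.082 to 0.093 against 0.071 to 0.088), and Emcn, Tek and Tie1 stayed near background. Of 4 T cell markers 2 were tested (2.53 to 3.34 against 2.54 to 2.78), and of 3 adipocyte markers none was. A sum is carried by its brightest probes, and members of a list went both ways. The macrophage markers Cd68, Csf1r and Cd14 stood higher on both PGE2 arrays, by 2.09, 0.98 and 0.62, whereas the bright Itgam stood at -0.61 and Ptprc at -0.36, and the median of the 5 was 0.62. Of the fibroblast markers Pi16 stood at 2.78 and Pdgfra at 0.60, against -2.91 for Dcn, -2.17 for Lum and -1.66 for Thy1. All 4 smooth muscle markers had changes below 0. No marker was called (limma), while 2 were higher and 4 lower at an unadjusted p under 0.05, of 17 tested, beside 7.31% and 10.5% of all. The part of these markers in the results below was not tested. In RNA of whole cultures, fewer cells of a type and less RNA per cell cannot be told apart.

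The promoters of the 3 genes whose groups did not overlap are shown for the letters they hold. Sequences are from RefSeq on build GRCm38.p6, 5′ to 3′ on the strand of the gene, and give the 250 bases before the start site. Capitals mark every match, on either strand, to the motifs searched.
Stc2, chr11:31370062-31370311, minus strand: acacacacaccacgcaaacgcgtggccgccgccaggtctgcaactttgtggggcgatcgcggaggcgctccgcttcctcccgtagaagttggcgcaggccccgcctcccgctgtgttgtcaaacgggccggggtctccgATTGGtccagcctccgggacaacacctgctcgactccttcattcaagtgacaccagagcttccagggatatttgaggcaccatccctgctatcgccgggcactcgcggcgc
Igfbp4, chr11:99040994-99041243, plus strand: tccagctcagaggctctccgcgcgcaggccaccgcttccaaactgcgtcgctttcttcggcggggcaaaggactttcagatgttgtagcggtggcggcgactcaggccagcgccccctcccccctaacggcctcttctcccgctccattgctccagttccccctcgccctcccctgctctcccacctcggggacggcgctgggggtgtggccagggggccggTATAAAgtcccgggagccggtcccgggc
Igfbp7, chr5:77408046-77408295, minus strand: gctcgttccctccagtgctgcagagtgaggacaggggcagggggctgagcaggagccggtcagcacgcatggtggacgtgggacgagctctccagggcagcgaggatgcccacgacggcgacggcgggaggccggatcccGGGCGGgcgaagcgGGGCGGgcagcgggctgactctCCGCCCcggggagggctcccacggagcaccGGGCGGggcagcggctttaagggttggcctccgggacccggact

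Of the 10 genes 9 were in the promoter table, with 2 start sites for Igfbp2, which gave 10 windows. The cyclic AMP response element in full, TGACGTCA, was in none of these 10 windows and in 1.55% of all 32851, and its half-site TGACG, which the full element contains, was in none of the 10 and in 17.8% of all. The GC box GGGCGG was in windows of Igf1r, Igfbp2 and Igfbp7 (32.7% of all), with 4 matches in that of Igfbp7. A CCAAT box, CCAAT, was in those of Igf1, Igfbp6 and Stc2 (33.8% of all). The TATA box TATAAA was in those of Igfbp4, where it began 28 bases before the start site, and Igfbp6 (12.4% of all). The AP-1 motif TGANTCA was in a window of Igf1 and 1 of Igfbp2 (6.75% of all). A match is a description of letters, and a motif missing from these windows says nothing of the rest of the gene. By the array's own annotation Stc2 lies in band 11qA4, Igfbp4 in 11qD, Igfbp3 in 11qA1, Igfbp7 in 5qC3.3, Igfbp2 and Igfbp5 in 1qC3, Igfbp6 in 15qF3, Igf1 in 10qC1, Igf1r in 7qD1 and Stc1 in 14qD2.

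Stc2, the secreted inhibitor of PAPP-A, was measured by 1 probe. Its level was -1.74 and -2.04 on the control arrays and -4.13 and -4.16 on the PGE2 arrays, which as processed intensity is 152 and 146 against 34.3 and 34.8. The PGE2 arrays lay together and far below both control arrays. They were near the dimmest signal well above background on those arrays, 35.7 on PGE2 replicate 1 and 25.2 on PGE2 replicate 2. Stc2 fell by 2.26 ± 0.18 on the log2 scale with PGE2, which is 4.78-fold (adjusted p = 0.0465, limma with Benjamini-Hochberg adjustment), and by p it ranked 65 among the 17660. PGE2 replicate 1 was not well above background and PGE2 replicate 2 was, so the PGE2 level sits at the edge of what the array measures. With PGE2 replicate 1 set to that array's detection floor the difference is at least 4.68-fold. The change and its error use the undetected value of PGE2 replicate 1 as measured. With an intensity trend in the fit the standard error was 0.29 and the adjusted p 0.0637 (limma). The gene passed the filter through the control group, where it is high. The call was lost when any 1 array was left out, with adjusted p = 0.142 without control replicate 1, 0.109 without control replicate 2, 0.0940 without PGE2 replicate 1 and 0.0761 without PGE2 replicate 2, at changes of -2.40 to -2.11. Over 12 alternatives Stc2 was called in 3, and the adjusted p ran from 0.0444 to 0.240 (limma). With normexp background correction and quantile normalization the change was -1.13.

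Stc1, the other stanniocalcin gene, behaved differently from array to array. Its brighter probe was at -0.66 and -4.26 on the control arrays and -2.48 and -1.84 on the PGE2 arrays. Control replicate 2 was not well above background, and control replicate 1 stood at least 7.83-fold above the detection floor of that array. Both PGE2 arrays lay below control replicate 1 and above control replicate 2. The change was 0.30 ± 1.28 (adjusted p = 0.922, limma), with a 95% interval of -3.20 to 3.80, and it turned to -1.50 without control replicate 2 and to -0.02 without PGE2 replicate 2. The change and its error use the undetected value of control replicate 2 as measured. The other Stc1 probe stayed near background on all 4 arrays. Whether the changes of Stc1 and Stc2 differ from each other was not tested.

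**Figure D1:**
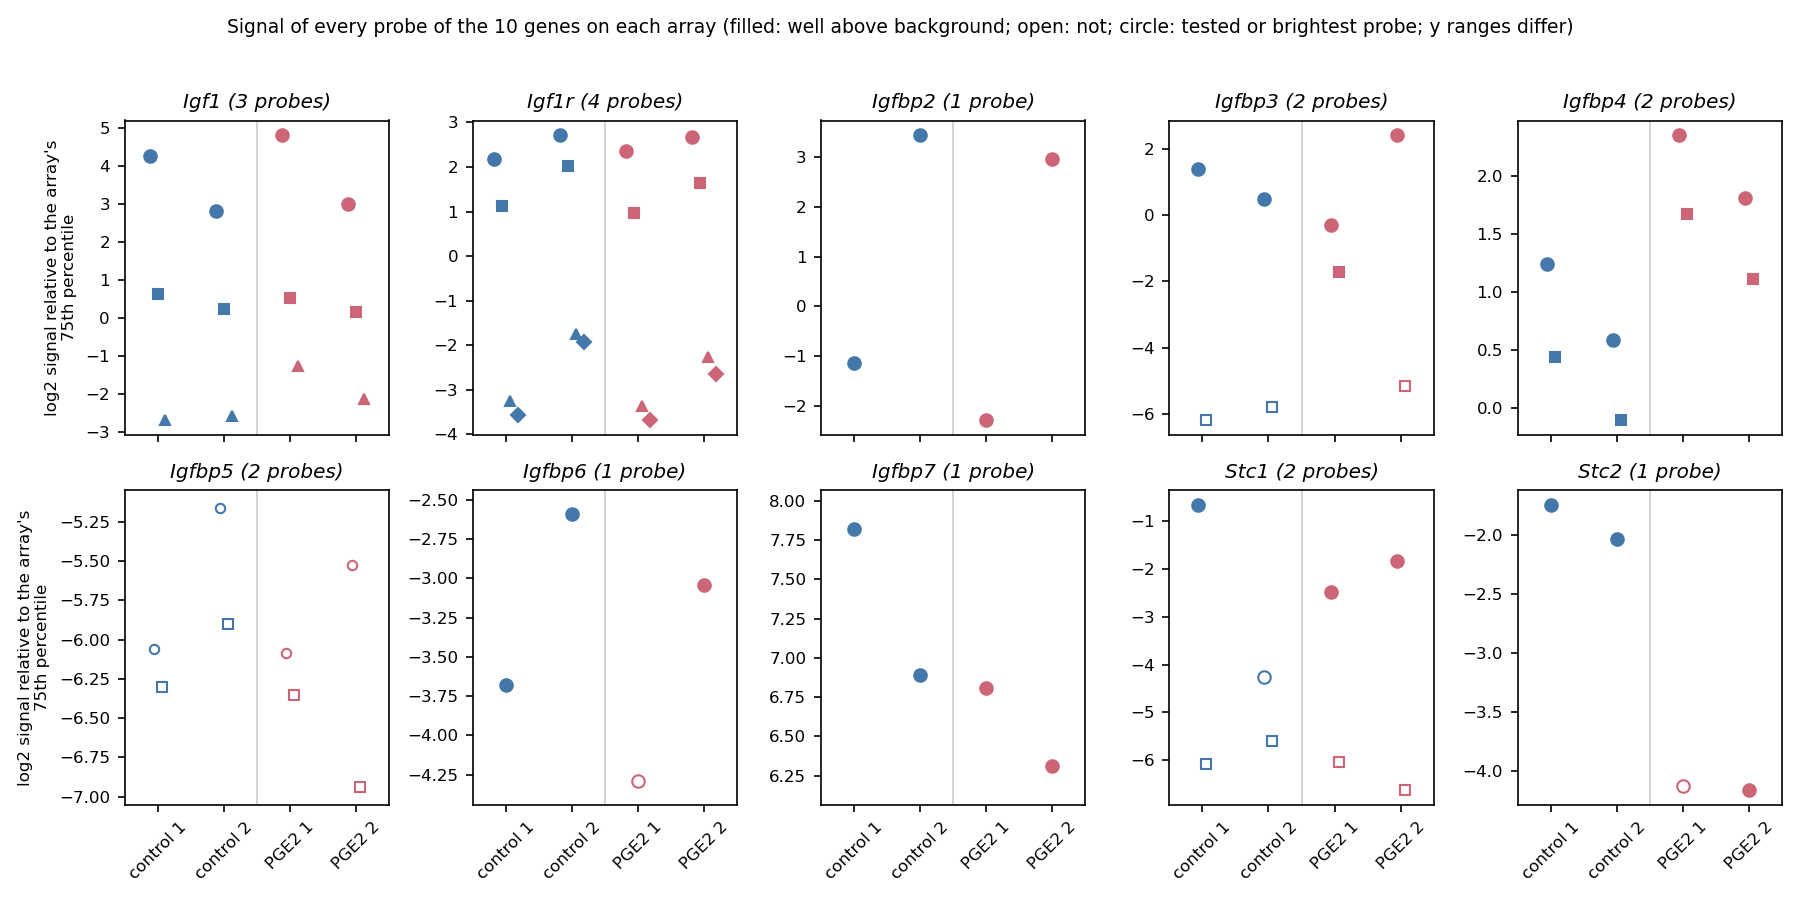
Log2 signal relative to the array's 75th percentile (vertical axes, with a different range in each panel) of all 19 probes of the 10 genes on control replicates 1 and 2 (blue) and PGE2 replicates 1 and 2 (red). Filled symbols are well above background and open ones are not, and circles are the probe tested, or for Igfbp5 the brighter probe. Igfbp2 stands high on control 2 and PGE2 2 (3.45 and 2.96) and low on control 1 and PGE2 1 (-1.14 and -2.29), whereas Stc2 separates control from PGE2.

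Igfbp4 encodes the binding protein that PAPP-A cuts, and is known as an inhibitor of IGF action. Its brighter probe was at 1.24 and 0.59 on the control arrays and 2.36 and 1.81 on the PGE2 arrays. Both PGE2 arrays were above both control arrays, and the second probe, at 0.44 and -0.11 against 1.67 and 1.12, gave the same order. The change was 1.17 ± 0.33, or 2.25-fold (adjusted p = 0.211, limma), and the second probe gave 1.23. The gene therefore did not pass, although its 95% interval for a single gene, 0.27 to 2.07, lay above 0. The change stayed between 0.84 and 1.49 in all 13 alternatives, with adjusted p from 0.0676 to 0.610, and was called in 0 of them.

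Igfbp7, the weak IGF binder, a secreted protein found in the vessel wall, was measured by 1 bright probe. It was at 7.82 and 6.89 on the control arrays and at 6.81 and 6.31 on the PGE2 arrays. The groups did not overlap, but control replicate 2 and PGE2 replicate 1 were close, and the control arrays were 1.91-fold apart. The change was -0.80 ± 0.40 (adjusted p = 0.384, limma), with a 95% interval of -1.88 to 0.29, and ran from -1.26 to -0.33 over 13 alternatives.

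**Figure D2:**
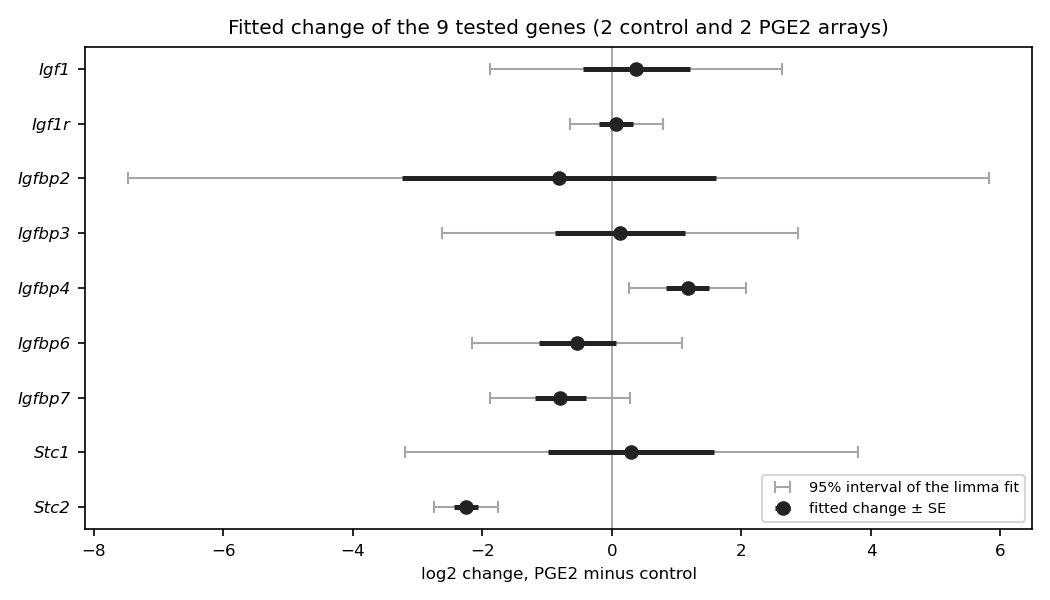
Fitted log2 change (horizontal axis, PGE2 minus control) of the 9 tested genes, with the standard error as thick bars and the 95% interval of the limma fit for a single gene as thin bars (2 arrays per group). The intervals of Stc2 (-2.75 to -1.76) and Igfbp4 (0.27 to 2.07) leave out 0, and that of Igfbp2 is the widest of the 9 (-7.47 to 5.82). The interval of Stc2 uses the value of PGE2 replicate 1, which was not well above background. Those of Igfbp6 and Stc1 also use an array that was not.

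Igfbp2, a binding protein gene that lies next to Igfbp5 on chromosome 1, had the widest range of the 9 tested genes. Its level was -1.14 and 3.45 on the control arrays and -2.29 and 2.96 on the PGE2 arrays. As processed intensity this is 230 and 6552 for control, and 123 and 4851 for PGE2. Replicate 2 was 24.2-fold above replicate 1 in the control group and 38.2-fold above it in the PGE2 group, and 0.0906% and 0.0453% of all tested genes had arrays of those groups further apart. The treatment comparison, -0.82 ± 2.43 (adjusted p = 0.884, limma), was small beside this spread, and it turned to 1.48 without control replicate 2 and 1.80 without PGE2 replicate 1. With an interval of -7.47 to 5.82 it shows neither a change nor the absence of one.

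Igfbp3 encodes the main carrier of IGFs in blood, and in these cells its tested probe was at 1.37 and 0.49 on the control arrays and -0.31 and 2.42 on the PGE2 arrays. The lowest and the highest array were both PGE2 arrays, 6.62-fold apart, and 0.764% of all tested genes had PGE2 arrays further apart. The change was 0.12 ± 1.01 (adjusted p = 0.962, limma) and turned to -0.32 without control replicate 2 and -1.24 without PGE2 replicate 2. A second probe, designed to another transcript model, was at -6.19 and -5.78 on the control arrays and -1.72 and -5.16 on the PGE2 arrays. It was well above background on PGE2 replicate 1 alone, the array on which the tested probe was lowest, so the probes disagree in that culture.

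Igfbp6, whose protein prefers IGF2, was dim, at -3.68 and -2.59 on the control arrays and -4.29 and -3.05 on the PGE2 arrays. PGE2 replicate 1 was not well above background, and the groups overlapped. The change was -0.53 ± 0.59 (adjusted p = 0.678, limma), and turned to 0.01 without control replicate 2 and 0.090 without PGE2 replicate 1. Igfbp5, a binding protein of matrix and bone known also from smooth muscle, gave levels from -6.94 to -5.16 over its 2 probes, all not well above background. It was not tested, and its own level is known only to lie below what these probes detect.

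Igf1, the ligand, was bright on its main probe, designed to transcript variant 1. That probe was at 4.28 and 2.82 on the control arrays and 4.83 and 3.01 on the PGE2 arrays. Replicate 1 was the higher array in both groups, 2.76-fold in control and 3.54-fold in PGE2. The change was 0.37 ± 0.82 (adjusted p = 0.841, limma), and turned to -0.36 without control replicate 2 and -0.54 without PGE2 replicate 1. The other Igf1 probes showed a smaller spread between cultures of a group. The probe for transcript variant 2 was at 0.63 and 0.26 against 0.55 and 0.18, a change of -0.08, and a dimmer probe to an unclassified cDNA was at -2.69 and -2.57 against -1.26 and -2.12, a change of 0.94 (adjusted p = 0.283 in the fit of all kept probes, limma).

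Igf1r, the receptor, had the narrowest range of the 9 tested genes on the probe tested for each. Its dimmest probe ranged more widely, from -3.69 on PGE2 replicate 1 to -1.93 on control replicate 2. Its brightest probe was at 2.18 and 2.72 on the control arrays and 2.37 and 2.68 on the PGE2 arrays, so that its 4 arrays lay within 1.45-fold. The change was 0.07 ± 0.26 (adjusted p = 0.911, limma), with an interval of -0.65 to 0.79. It turned to -0.20 without control replicate 1, -0.09 without PGE2 replicate 2 and -0.23 as the mean of all probes of the gene. The other 3 probes gave changes of -0.26, -0.32 and -0.42, and on all 4 probes replicate 2 was higher than replicate 1 in both groups, by 0.31 to 1.63.

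**Figure D3:**
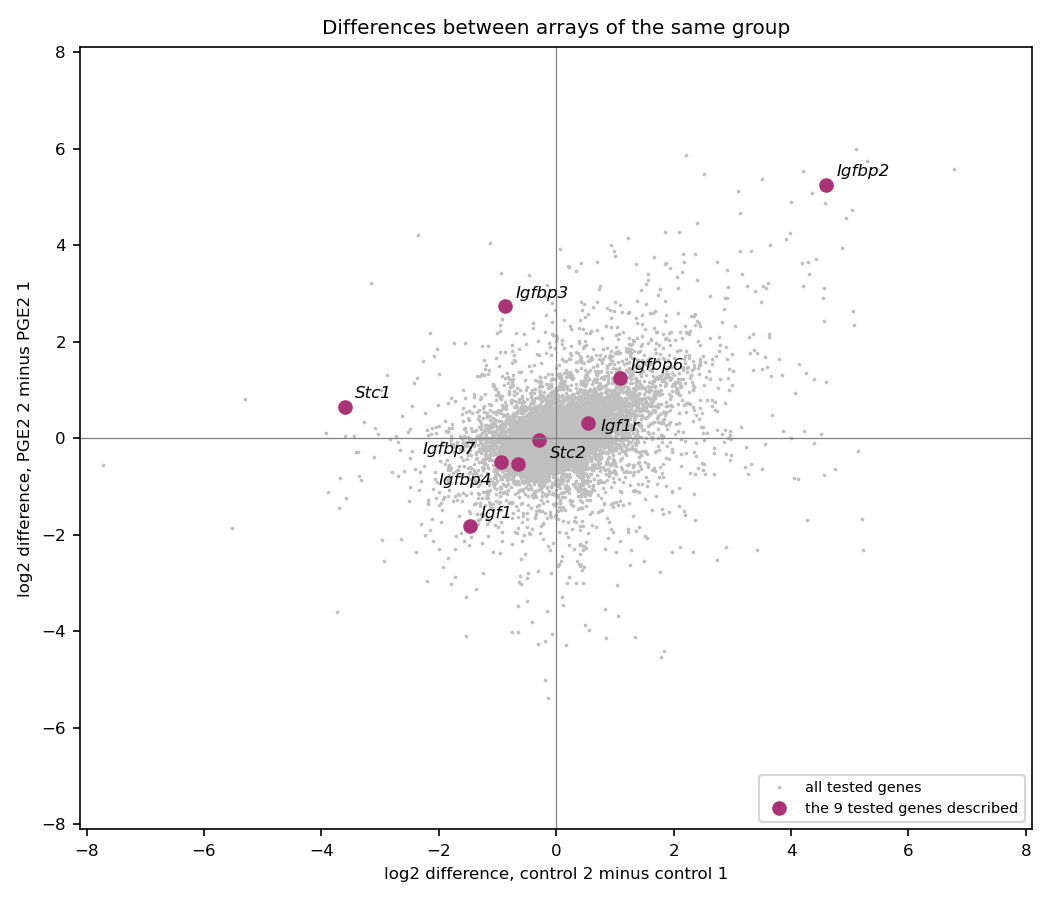
Log2 difference between the 2 control arrays (horizontal axis) and between the 2 PGE2 arrays (vertical axis) for all 17660 tested genes (grey) and the 9 tested genes described (purple, named). Igfbp2 stands at 4.60 and 5.25, at the edge of the cloud. Stc1 stands at -3.61 (control replicate 2 not well above background) and 0.65, and Igfbp3 at -0.88 and 2.73. Stc2 lies near the centre at -0.29 and -0.03 (PGE2 replicate 1 not well above background).

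In 7 of the 9 genes, arrays of 1 group differed from each other by more than the groups did, beside 60.2% of all tested genes. The median absolute difference between the control arrays was 0.93 for the 9 genes and 0.28 for all, and between the PGE2 arrays 0.65 and 0.20. The control difference of Stc1, and the PGE2 differences of Stc2 and Igfbp6, include an array not well above background. Igf1, Igfbp2 and Igfbp6 were apart by over 1 on the log2 scale in the same direction of replicate number in both groups, which is 3 of 9 beside 2.91% of all tested genes. Replicate 2 was the higher in Igfbp2 and Igfbp6, 2 of 9 beside 2.33% of all, and replicate 1 in Igf1, beside 0.578%. For Igf1 this holds for the main probe and not for the other 2. Equal numbers are not said by the labels to mark cultures handled together. This pattern was chosen after its values were seen.

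Among the 69 other genes of the pathway, listed by role, 53 were tested and 0 passed in either direction (limma, adjusted), while 8 stood higher and 4 lower at an unadjusted p under 0.05, beside 7.31% and 10.5% of all tested genes. Their median change was 0.11. No other ligand gene was well above background, as Igf2, Ins1 and Ins2 stayed near it on all 4 arrays. Of the other receptors, Igf2r, which clears IGF2 from the cell surface, stood at 0.08 ± 0.19 (or -0.091 without control replicate 1) and the insulin receptor gene Insr at 0.78 ± 0.45 (adjusted p = 0.849 and 0.443), where PGE2 replicate 2 alone was high (-0.94 against -2.37 to -2.17 on the other arrays).

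Of 5 other binding protein genes, 2 were tested. Igfbp1 and the carrier subunit gene Igfals stayed near background. Esm1, which encodes a secreted proteoglycan with an IGFBP-like domain, was at -6.14 and -4.78 on the control arrays, where it was not well above background, and at -2.56 and 1.04 on the PGE2 arrays. Against the detection floor of the control arrays the mean PGE2 level was at least 8.35-fold higher, with at least 2.4-fold for PGE2 replicate 1 alone and at least 29.1-fold for PGE2 replicate 2 alone. It did not pass (adjusted p = 0.215, limma). Without PGE2 replicate 1 the adjusted p was 0.0478, but that fit sets 1 PGE2 array against undetected control values and assumes that the lone array varies like the control group. Each bound takes, on each control array, the higher of the dimmest signal well above background and the probe's own signal. Kazald1, a gene with an IGFBP-like domain, stood at 0.11 ± 0.32 (adjusted p = 0.888), a value that became -0.066 when control replicate 2 was left out and -0.27 when PGE2 replicate 1 was.

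Of 14 genes listed here as proteases tied to IGF binding proteins, 10 were tested and 0 passed (median 0.60). Whether each acts on these binding proteins was not tested. Of the 10, 3 stood higher and 2 lower at an unadjusted p under 0.05 (limma), beside the same 7.31% and 10.5% of all. Htra4, a secreted serine protease gene with an IGFBP-like domain, was at -2.52 and -2.0 on the control arrays and at 0.28 and 0.085 on the PGE2 arrays, a change of 2.45 ± 0.24 (adjusted p = 0.0558, limma). It was called in 3 of 13 alternatives, with adjusted p of 0.0493 after quantile normalization, 0.0382 after normexp and quantile normalization and 0.0470 with an intensity trend, and over all 13 the adjusted p ran up to 0.240. Plat, the gene of tissue plasminogen activator, stood at 1.25 ± 0.19 (adjusted p = 0.0930) and the serine protease gene Prss23 at -2.25 ± 0.32 (adjusted p = 0.0885). Their groups did not overlap, but they were named for their small p. Of the 10 tested genes of this list, 4 were higher and 2 lower without overlap, beside 52.2% of all tested genes in either direction. Pappa, named because its protein is the target of the stanniocalcins and after its values were seen, was at -4.82 and 0.04 on the control arrays and -2.73 and 1.21 on the PGE2 arrays. Control replicate 1 was not well above background. With control replicate 1 set to its own detection floor, control replicate 2 was at least 16.8-fold above it. In the PGE2 group replicate 2 was 15.3-fold above replicate 1. The change of Pappa was 1.63 ± 2.18 (adjusted p = 0.730, limma). It became -0.80 when control replicate 1 was left out and -0.34 when PGE2 replicate 2 was.

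**Figure D4:**
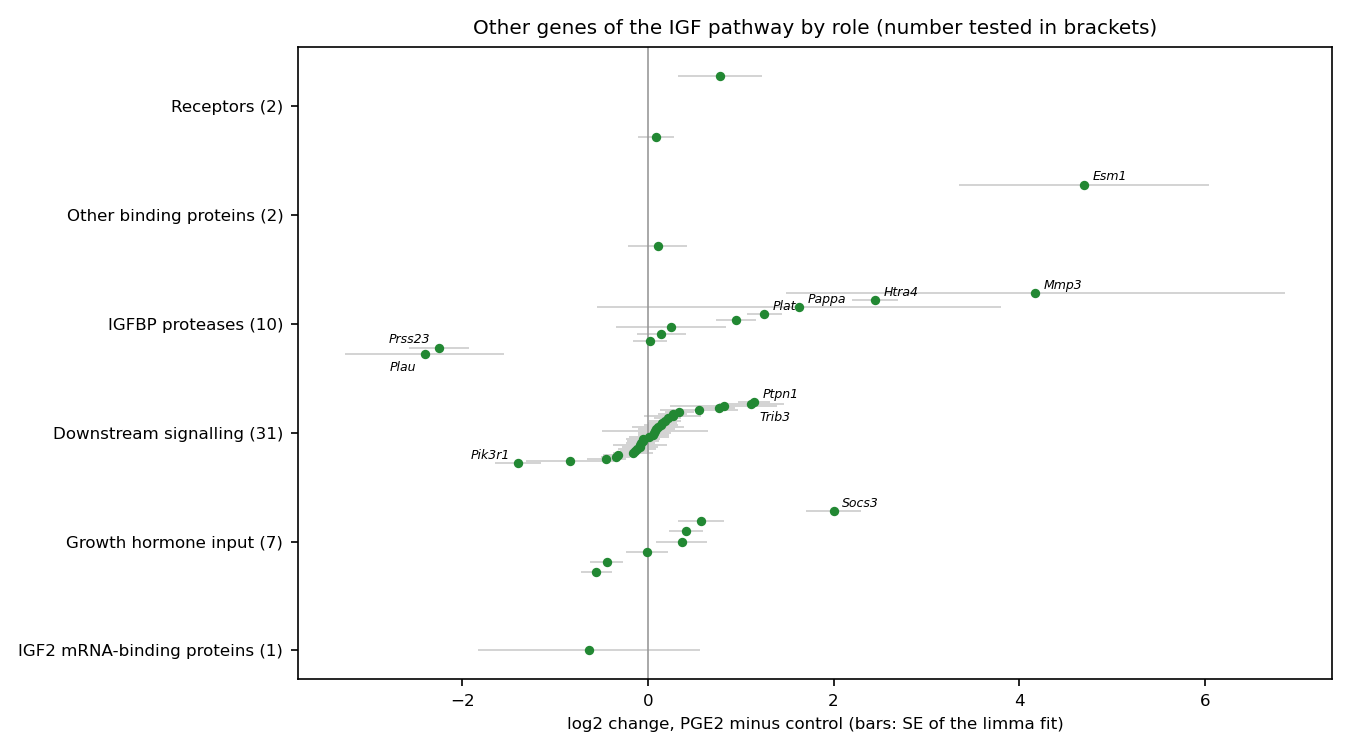
Fitted log2 change (horizontal axis, PGE2 minus control, bars the standard error) of the 53 tested other genes of the pathway, by role, with names for those beyond 1 on either side. No gene passed the adjusted threshold, and 31 genes of downstream signalling gather around 0 (median 0.07).

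Of 33 adaptor and kinase genes downstream of the receptor, 31 were tested, all above background on all 4 arrays, with a median change of 0.07. Of these 3 stood higher and 1 lower at an unadjusted p under 0.05, again beside 7.31% and 10.5% of all. The phosphatase gene Ptpn1, whose enzyme removes phosphate from the insulin and IGF1 receptors, stood at 1.14 ± 0.17 (adjusted p = 0.0954, limma), with 1.11 on a dimmer probe and the last not above background. Pik3r1, the regulatory subunit gene of PI3 kinase, stood at -1.40 ± 0.25 (adjusted p = 0.117), and the adaptor gene Irs1, which carries the signal from the receptor to PI3 kinase, at 0.76 ± 0.17 (adjusted p = 0.162). In each of these 3 genes, named for their small p, the groups did not overlap. Of the 31 genes, 7 were higher and 7 lower without overlap, beside 52.2% of all tested genes in either direction.

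Growth hormone drives Igf1 in liver and other tissues, and 7 of 8 genes of that input were tested, with a median of 0.37. Of the 7, 0 were called, beside 0.668% of all tested genes. At an unadjusted p under 0.05 (limma) 1 stood higher and 1 lower, beside 7.31% and 10.5% of all. Without overlap of the groups 4 were higher and 2 lower, beside 52.2% of all in either direction. Socs3, a feedback inhibitor of cytokine receptors, was at 0.78 and 0.36 on the control arrays and 2.27 and 2.88 on the PGE2 arrays, a change of 2.00 ± 0.30 (adjusted p = 0.0898, limma). The growth hormone receptor gene Ghr stood at -0.56 ± 0.17 (adjusted p = 0.233), with 3 further probes at -0.85, -0.99 and -1.06, and the transcription factor gene Stat5a at -0.44 ± 0.18 (adjusted p = 0.312), with -0.08 on a second probe. Of the 3 genes for IGF2 mRNA-binding proteins, Igf2bp2 alone was tested. It stood at -0.64 ± 1.20 (adjusted p = 0.813), with 0.09 on a second probe, and its replicate 2 arrays were 5.30-fold (control) and 5.38-fold (PGE2) above replicate 1. Without control replicate 2 its change was 0.56, and without PGE2 replicate 1 it was 0.58.

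Named genes whose 4 levels, centred per gene, lay nearest to those of Stc2 and of Igfbp4 were sought among 12600, by root mean square distance over the 4 arrays. For Stc2 they were Mab21l3 (0.029), Nkain4 (0.075), Ccn4, a matricellular protein gene of the CCN family (0.091), and Hs6st2, which encodes a heparan sulfate sulfotransferase (0.12). Mab21l3 was near background on both PGE2 arrays, so its place in this order rests in part on undetected values. Stc2 itself was not well above background on PGE2 replicate 1, so every distance to Stc2 rests in part on that value. A dimmer Hs6st2 probe was at -0.76 and 0.88 on the control arrays and -2.63 and -1.51 on the PGE2 arrays. A further Hs6st2 probe changed by -2.36. For Igfbp4 the nearest genes were Nqo2, a quinone reductase gene (0.039), the purine nucleoside phosphorylase gene Pnp (0.047), the protocadherin gene Pcdhb9 (0.057) and Lmln (0.071). Lmln was near background on both control arrays. A dimmer Nqo2 probe did not share the pattern of the tested Nqo2 probe, at -1.92 and -3.73 on the control arrays and -2.03 and -3.03 on the PGE2 arrays. With 4 arrays, likeness of this kind is a description of levels.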

How the data were processed

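Intensity per spot was deposited as the scanner output of Agilent Feature Extraction, version 11.5.1.1 per the file headers and 12.0.3.1 per the submitters' processing notes, for array design 074809 on build mm9. The deposited series file repeats this intensity multiplied by a constant for each array, and gave gene symbols and an alternative scale. Its 4 columns of detection calls were not used. Spots flagged as outliers were dropped and repeated spots averaged. Each value is log2 of the processed intensity less the array's 75th percentile. Probes had to be well above background on both arrays of the control or the PGE2 group (26100 probes), and the brightest such probe stood for its gene (17660 tested). Symbols were updated by gene ID through the RefSeq table of GRCm38.p6 (44970 of 47700 spots with a symbol matched), and none of its coordinates was used with the array. The groups were compared in limma 3.58.1 (R 4.3.3) by lmFit and eBayes with no block and Benjamini-Hochberg adjustment over all tested genes, at a threshold of 0.05. The fit was tested on simulated data. The 10 genes and the lists of pathway and marker genes were chosen with earlier results of these data known.

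Named genes were the 10 genes with every probe, for each role list the tested genes that passed or else up to 3 with the smallest p, and the 4 genes nearest in pattern to those of the 10 with the largest fitted rise and fall. Pappa was added later. Detection floors and intervals cover these arrays only, and their number, 2 per group, limits the precision. The background intensity and median spot intensity, as deposited, entered the normexp alternative (offset 50), since the mean spot intensity was not used here. All arrays carry 1 scan identifier in the file headers. Alternatives were other scalings, filters, probe choices, an intensity trend, the replicate number as a block and leaving out each array.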

Additional observations from a re-analysis of the deposited data

How the results depend on the processing

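Stc2 was lower and Igfbp4 higher with PGE2, and Igfbp7 lower, in every alternative in which they were tested (12, 13 and 13). Much of this was fixed in advance. The groups of these genes did not overlap, so leaving out 1 array could not reverse a change. The missing filter, the replicate block and the intensity trend left each fitted change as it was. Of the 10 genes 1 was called, and 0 with quantile normalization, with normexp and quantile normalization, on the authors' scaled signal, without the filter on dim probes, with the filter for all 4 arrays (which leaves out Stc2, Stc1 and Igfbp6) and with an intensity trend. Leaving out 1 array gave 0 in each case. Over all genes, 70 higher and 48 lower became 0 and 0 on the authors' scaled signal and without the filter, and 39 and 15 with the filter for all 4 arrays. At an unadjusted p under 0.05 (limma) the authors' scaled signal had 4204 of 17660 genes and the missing filter 2685 of 37436. The main setting had 3151 of 17660. Leaving out 1 array gave 0 to 98 higher and 0 to 75 lower genes, and 0 in both directions when either control array was the one left out (2713 for control replicate 1 and 2967 for control replicate 2 at an unadjusted p under 0.05). The cause was not tested. The authors' scale moved the median change of all genes from -0.03 to 0.23 and the missing filter to -0.33, and no change of the 9 genes changed sign on the authors' scale.

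With the replicate block, 88 genes were higher and 84 lower, Stc2 stayed the 1 gene called (adjusted p = 0.0476, limma), and it changed no other call among the 10. Adjusted p with the block was 0.0676 for Igfbp4, 0.137 for Igfbp7, 0.161 for Igfbp6 and 0.165 for Igfbp2, from 0.211, 0.384, 0.678 and 0.884 without it. Deviations from the group mean of arrays with the same number correlated at 0.42 across genes, but with 2 pairs the numbers are not shown to pair the cultures.

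The change of Stc1 was -0.069 with normexp and quantile normalization, and that of Igf1r -0.23 as the mean of all probes. Leaving out 1 array moved Igf1 between -0.54 and 1.29, Igf1r between -0.20 and 0.34, Igfbp2 between -3.45 and 1.80, Igfbp3 between -1.24 and 1.48, Igfbp6 between -1.15 and 0.090 and Stc1 between -1.50 and 2.10. It moved Igf2r between -0.091 and 0.26, Kazald1 between -0.27 and 0.48, Igf2bp2 between -1.85 and 0.58 and Pappa between -0.80 and 4.06. Signals near background limit Stc2, Igfbp6, Stc1 and Pappa.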
